A study of Kluyveromyces marxianus with 6 samples.

Results

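The mRNAs examined here come from genes for the entry and sensing of hexoses in the yeast *Kluyveromyces marxianus*, with transfrag00048 of a KHT2 homolog at their head. A transfrag is a contiguous stretch of the genome with mapped reads on 1 strand. The members are the transfrags classed as mRNA that overlap, on the same strand, a gene whose closest homolog carries a name starting with KHT, HGT1, RAG1, HXT, LACP, SNF3 or RGT2. The homolog names used here cover only the first 1998 genes of the authors' annotation, so further genes of these families were not analysed. Among these 1998, 11 matched, and 7 of them carried 12 mRNA transfrags out of 5785 mRNA transfrags and 14298 transfrags of all classes. The genes comprise 2 KHT2 homologs, 1 HXT14 homolog, 1 HXT15 homolog, 6 HGT1 homologs and 1 SNF3 homolog. No gene among those 1998 had a LACP, RAG1 or RGT2 homolog, so the lactose carriers are not represented here.

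The strain ATCC 36907 (KM7) was grown with shaking in a synthetic medium of yeast nitrogen base with dextrose and an amino acid mix free of uracil, at 30 °C. Total RNA freed of rRNA was sequenced with strand information at early- (EE), mid- (ME) and late-exponential (LE) phase, at an optical density of about 3, 7 and 10. All samples share the strain, the medium and the sugar, and growth phase is the only labelled difference between the groups. Each phase has 2 biological replicates, and the authors' level of a transfrag is the mean over both, so no difference between phases was tested. The libraries of a phase can be told apart only at low levels, and other values have no replicate check.

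The transcriptional level is a normalized read signal, scaled between libraries and not by length, and levels of different genes are set side by side per kb only. The size factors were recovered from the spacing of the low levels, as 0.707 and 0.375 for the EE libraries, 1.85 and 1.37 for ME, and 1.70 and 1.26 for LE. An estimated 4.41e+06 reads on transfrags underlie EE, 1.10e+07 ME and 1.38e+07 LE, so by these estimates the EE levels are the least precise. The paper reports more mapped reads in each phase, with EE closer to ME in its totals. The reason for this difference was not tested. The level of 3 reads in a single library is 4.00 (EE), 1.09 (ME) and 1.19 (LE). Changes are log2 differences of the level plus 1, which understates those of low levels, and a change of at least 2-fold on this scale is called higher or lower. The errors given are counting errors widened by 1.54, the extra spread seen between the EE libraries at levels up to 12, and may be too narrow at high levels.

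Yeasts take up glucose through carriers of the major facilitator superfamily, of which some have low affinity and serve when sugar is plentiful, and others have high affinity and serve when it is scarce. KHT2 and HGT1 are glucose carriers of *K. lactis*, of which HGT1 has high affinity. The HXT family carries hexoses in *S. cerevisiae*, and Snf3 of that yeast resembles a carrier but acts in the plasma membrane as a sensor of low glucose, upstream of the casein kinase and of the repressor Rgt1 that control the carrier genes.

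The 12 members differed between phases in both directions. The mRNA of the KHT2 homolog was 17.3-fold lower in LE than in EE. Of the 3 mRNA transfrags of the SNF3 homolog, the last was 2.02-fold higher as deposited and the first higher still. The one between had a log2 change of −1.09 ± 0.92. The mRNA transfrags of the HGT1 homologs had levels of at most 21.96. Per kb they lay below the median of all mRNA transfrags, except transfrag06263 in EE, at 55.0 against 47.3. In ME against EE, 2 of the 12 members were at least 2-fold higher and 3 lower by as much, where 33.6% and 31% of all mRNA transfrags were. In LE against EE, 5 were higher and 4 lower, beside 34.2% and 37.2% of all mRNA transfrags. In LE against ME, 0 were higher and 2 lower, beside 4.91% and 14.6%. The median log2 change of the members was 0.39 in ME and 0.63 in LE against EE, and that of all mRNA transfrags was −0.13 and −0.28. Among the 2302 mRNA transfrags of the 1998 genes alone, the shares were similar, at 34.9% higher and 35.3% lower in LE against EE. With the levels scaled to an equal sum without the 100 highest transfrags, which lowers all LE values by 0.62 on the log2 scale, 2 members were higher and 4 lower in LE against EE.

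**Figure D1:**
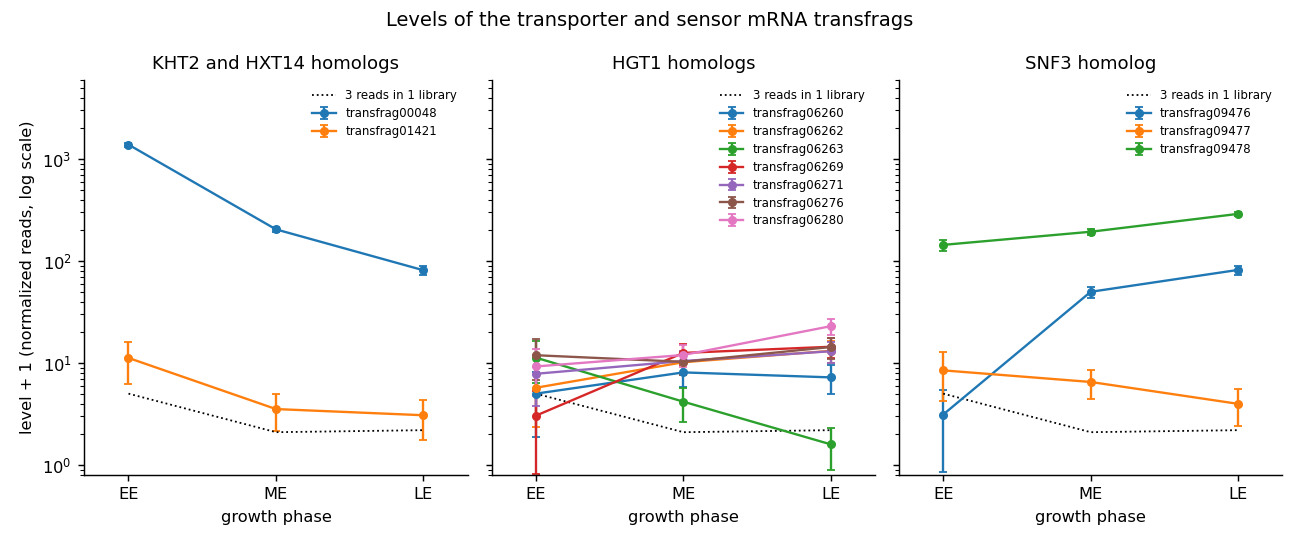
Levels of the 12 members in EE, ME and LE, plotted as level plus 1 on a log axis, 1 line per transfrag. Error bars are the widened counting errors, cut at 0.3 at their lower end, and the dotted line is the level of 3 reads in 1 library. transfrag00048 ran from 1384.32 to 80.14, the 7 HGT1 transfrags stayed under 22, and 2 of the 3 SNF3 transfrags ended above 80.

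The highest member in EE was the mRNA of the KHT2 homolog. transfrag00048 lies on contig 26 of the assembly, on the minus strand from 2363 to 3682. It covers the whole of gene KMPG00006 as annotated, at 1275 bp, and whether the annotated gene is complete was not tested. The authors placed reads with more than 1 match at random, and how many of them lie here was not tested. The level of transfrag00048 was 1384.32 (EE), 203.30 (ME) and 80.14 (LE). It was thus highest in EE and lowest in LE, with each step larger than the errors, which have no replicate check at these levels. The log2 change was −2.76 ± 0.11 in ME and −4.09 ± 0.16 in LE against EE, and −1.33 ± 0.17 in LE against ME. These correspond to levels 6.81-fold, 17.3-fold and 2.54-fold lower. Only 2 of the 5785 mRNA transfrags had a lower log2 change in LE against EE, while 111 had one in ME against EE. Per kb, transfrag00048 stood above 94.1% (EE), 64.1% (ME) and 52.4% (LE) of all mRNA transfrags. Its level per kb in LE, 60.7, was still above the median of all mRNA transfrags, which was 47.9.

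The strand opposite to the KHT2 homolog held little signal. The lancRNA transfrag00044, a long antisense RNA that overlaps the last 201 bp of transfrag00048, had levels of 10.28 (EE), 9.94 (ME) and 6.41 (LE). Its log2 change in LE against EE was −0.61 ± 0.78, within the error. Per kb it stood at 25.4 against 1049 for the mRNA in EE, and at 15.9 against 60.7 in LE.

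A further KHT2 homolog, KMPG00005, is a partial gene of 177 bp at the very start of contig 26, and no mRNA transfrag overlaps it. The short antisense transfrag00040 over it had levels of 1.33, 2.71 and 2.66 in EE, ME and LE, that is 1 read in EE.

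Among mRNA transfrags with a mean level from 10 upwards, the 5 whose pair of changes was nearest to that of transfrag00048 are named here. Nearest was transfrag28784 on contig 114, with levels of 65.61, 8.78 and 4.03 in EE, ME and LE and a Euclidean distance of 0.37 in the 2 log2 changes. It was followed by transfrag03379, a homolog of BRO1, which acts in endosomal sorting in *S. cerevisiae*, with 27.78, 2.35 and 1.09. The others were transfrag28188 and transfrag29172 on contig 114 and transfrag11531, a homolog of ERG5, which encodes the C-22 sterol desaturase of ergosterol synthesis, with 95.14, 8.82 and 6.58 and a distance of 0.68. None of the 4020 transfrags compared lay within 0.25, and likeness was measured over 3 phases only.

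The HXT homologs held few reads in mRNA transfrags. The only mRNA transfrag of the HXT14 homolog KMPG00247 on contig 91, transfrag01421 (plus strand, 197319 to 197502), covers 11.6% of the gene at its start. Its level was 10.20 (EE), 2.53 (ME) and 2.07 (LE). These levels split into 5 and 5 reads in the EE libraries, 8 and 1 in ME, and 3 and 3 in LE. The log2 change was −1.67 ± 0.85 in ME and −1.87 ± 0.89 in LE against EE. Per kb, this short transfrag stood above 56.3% (EE), 21.2% (ME) and 26.3% (LE) of all mRNA transfrags. No antisense transfrag overlaps this gene.

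The HXT15 homolog KMPG00284, also on contig 91, had no mRNA transfrag but an antisense one. The lancRNA transfrag02031 had levels of 3.54 (EE), 25.48 (ME) and 7.26 (LE), and was thus highest in ME. The EE level came from 5 reads in 1 library and 0 in the other. The log2 change was 2.54 ± 0.96 in ME against EE and −1.68 ± 0.49 in LE against ME.

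**Figure D2:**
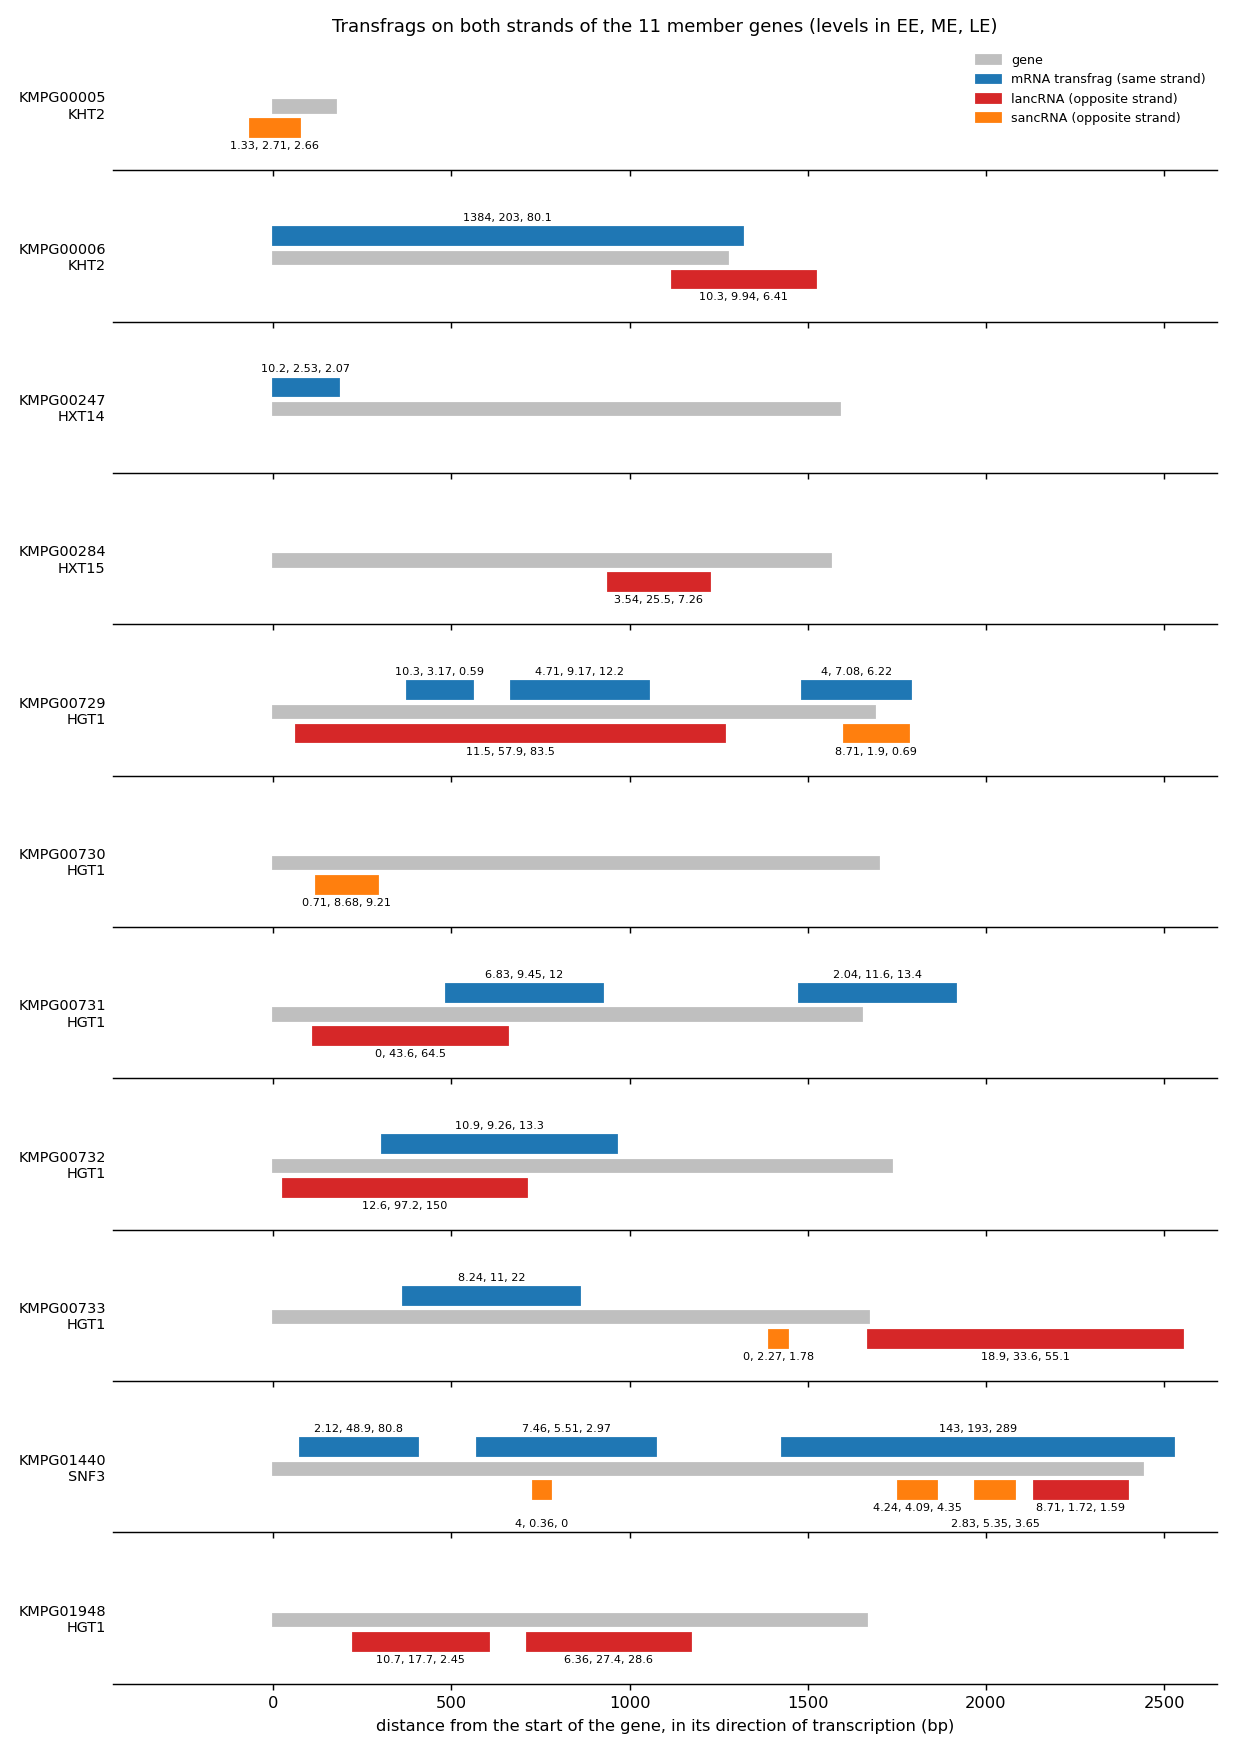
Maps of the 11 member genes by distance in bp from the start of each gene (grey bars), with same-strand mRNA transfrags above and opposite-strand transfrags below. The numbers are the levels in EE, ME and LE. The KHT2 homolog KMPG00006 is covered in full, whereas the 4 HGT1 homologs with mRNA transfrags are covered in part, and over KMPG00729, KMPG00731 and KMPG00732 a lancRNA lies near the start of the gene.

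Most of the members belong to homologs of the high-affinity carrier HGT1. Of these 6 genes, 5 lie in a row on the minus strand of contig 103, from 567079 to 582790, separated by 1639 to 2170 bp, and the sixth, KMPG01948, lies on contig 106. The row carried 7 mRNA transfrags over 4 genes, and KMPG00730 and KMPG01948 had none. Each of the 4 genes was covered only in part, by 46.1% for KMPG00729, 37.3% for KMPG00731, 38.1% for KMPG00732 and 29.8% for KMPG00733, while the median over the 1546 genes with an mRNA transfrag was 79.5%. The authors placed reads with more than 1 match at random, so reads that fit several of these copies cannot be assigned to 1 of them, and how many such reads there are was not tested.

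The summed level of the mRNA transfrags of KMPG00729 was nearly the same in all phases, at 18.99, 19.42 and 18.96 in EE, ME and LE, but its 3 transfrags differed in direction. transfrag06263 (568207 to 568393), nearest the start of the gene, had levels of 10.28, 3.17 and 0.59. Its libraries held 7 and 4 reads (EE), 5 and 5 (ME), and 2 and 0 (LE), so that each EE library held more than either LE library. Scaled by the size factors, the reads were 15.0-fold lower in LE (95% counting interval of 3.28 to 140). The next, transfrag06262 (567713 to 568100), had levels of 4.71, 9.17 and 12.15 and a log2 change in LE of 1.20 ± 0.92. At the far end, transfrag06260 (566977 to 567282) had levels of 4.00, 7.08 and 6.22, of which the EE level came from 0 and 3 reads. Its reads were 2.19-fold higher in LE than in EE, with a counting interval of 0.640 to 11.6 that includes no change.

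KMPG00731 had a summed mRNA level of 8.87 (EE), 21.0 (ME) and 25.4 (LE). transfrag06269 (574015 to 574455) made up most of this difference, with levels of 2.04, 11.55 and 13.42. Its EE level came from 1 read in each library, and its reads were 6.21-fold higher in ME (95% counting interval of 1.60 to 53.2) and 7.31-fold higher in LE (1.90 to 62.4). Less than 50% of this transfrag lies inside the gene, and the rest runs on beyond its end. transfrag06271 (575006 to 575444) had levels of 6.83, 9.45 and 12.03, with log2 changes within their errors of 0.83.

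The remaining genes of the row had 1 mRNA transfrag each. transfrag06276 (578462 to 579122) of KMPG00732 had levels of 10.91, 9.26 and 13.34, and its log2 changes of −0.22 ± 0.72 in ME and 0.27 ± 0.71 in LE lay within the error. transfrag06280 (581929 to 582426) of KMPG00733 had levels of 8.24, 10.97 and 21.96. Its LE level was 2.67-fold the EE level, with a log2 change of 1.31 ± 0.75. Over the 7 HGT1 members, 1 was at least 2-fold higher and 1 lower in ME against EE, beside 33.6% and 31% of all mRNA transfrags, and 3 were higher and 1 lower in LE against EE, beside 34.2% and 37.2%.

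On the opposite strand of the row the levels were higher in ME and LE. Over the whole span, the 10 transfrags of the opposite strand summed to 68.84 (EE), 274.35 (ME) and 409.82 (LE), or 15.4, 61.4 and 91.7 per kb of transfrag. The 11 transfrags of the strand of the genes, intergenic ones included, summed to 74.56, 76.93 and 90.96, or 18.4, 19.0 and 22.5 per kb. Both strands thus had similar levels per kb in EE, and the opposite strand had the higher level in ME and LE.

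Most of this difference came from 4 lancRNAs. transfrag04095 over KMPG00732 had levels of 12.57 (EE), 97.23 (ME) and 149.68 (LE). Its log2 change was 2.86 ± 0.60 in ME and 3.47 ± 0.60 in LE, or 11.9-fold in LE, while the EE level came from 14 reads in 1 library and 2 in the other. transfrag04080, which spans 1204 bp of KMPG00729, had levels of 11.54, 57.85 and 83.54. It was 7.24-fold higher in LE than in EE, and its EE libraries held 5 and 6 reads. transfrag04088 over KMPG00731 had a level of 0 (EE), 43.65 (ME) and 64.45 (LE), hence at least 10.9-fold and 16.1-fold higher, taking 3 reads in 1 library as the lower limit. transfrag04096 had levels of 18.91, 33.56 and 55.13, a level 2.92-fold higher in LE than in EE, and an overlap with KMPG00733 of only 2 bp.

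Of these 4, 3 were at least 2-fold higher in ME and 4 in LE against EE, beside 34.3% and 37.1% of all lancRNAs, and 0 were higher in LE against ME, beside 7.08%. Their median log2 change was 2.54 in ME and 3.11 in LE, and that of all 3067 lancRNAs was 0.24 and 0.25. The changes in LE against ME were smaller, with a log2 difference of 0.52 to 0.70.

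The sums over each gene, per kb of transfrag, show how the strands compared. Opposite KMPG00732 the level per kb was 1.11 times that of its mRNA in EE, 10.1 times in ME and 10.8 times in LE. For KMPG00729 the ratios were 0.677, 1.95 and 2.82, so that the opposite strand was the higher in ME and LE. Its EE sums, 18.99 for the mRNA and 20.25 opposite to it, rest on few reads, and the order in EE was not tested. Opposite KMPG00731 the sum was 0 in EE, and the ratio was 3.35 in ME and 4.08 in LE. No ratio is given for KMPG00733, since nearly all of the level opposite to it lies on transfrag04096 outside the gene.

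**Figure D3:**
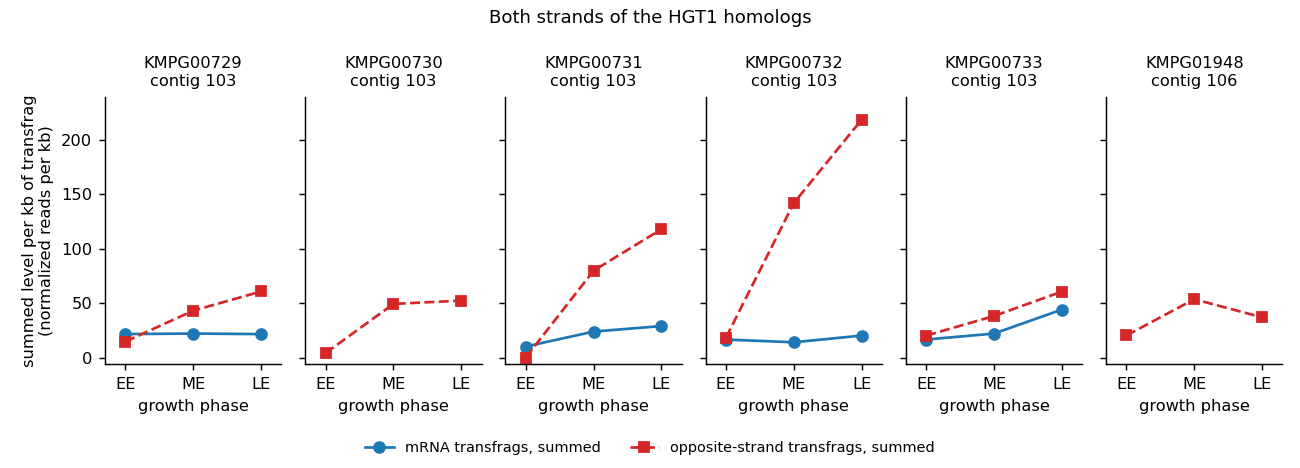
Summed levels per kb of transfrag of the mRNA transfrags (circles) and of the opposite-strand transfrags (squares) over the 6 HGT1 homologs in EE, ME and LE, drawn without errors. Opposite KMPG00732 the level per kb went from 18.4 to 219 while its mRNA lay between 14.0 and 20.2, KMPG00730 and KMPG01948 have no mRNA transfrag, and the squares of KMPG00733 are mostly transfrag04096, which overlaps that gene by 2 bp.

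The HGT1 homologs without an mRNA transfrag also had antisense ones. The sancRNA transfrag04083, a short antisense RNA over KMPG00730, had levels of 0.71, 8.68 and 9.21, from 1 read in EE, and its reads were 9.87-fold higher in LE (95% counting interval of 1.63 to 404). Over KMPG01948 lay a pair of lancRNAs. transfrag14627 had levels of 10.67, 17.69 and 2.45, with a log2 change of −2.44 ± 0.66 in LE against ME. transfrag14628, beside it, had levels of 6.36, 27.36 and 28.60 and a log2 change of 2.01 ± 0.80 in LE against EE. The first was therefore lower in LE than in EE and the second higher, although the EE reads of each came from 1 library alone, 8 for transfrag14627 and 9 for transfrag14628.

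The 2 remaining opposite-strand transfrags over genes of the row were short. transfrag04079 over the end of KMPG00729 had levels of 8.71, 1.90 and 0.69, and transfrag04097 over KMPG00733 had 0, 2.27 and 1.78. Of the 9 opposite-strand transfrags that overlap a member transfrag, 3 were at least 2-fold higher and 3 lower in ME against EE, beside 24% and 41.2% of all antisense transfrags. In LE against EE, 3 were higher and 3 lower too, beside 24.5% and 46.2%, and in LE against ME, 0 were higher and 0 lower, beside 5.87% and 14.3%.

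An antisense transfrag exceeded its mRNA per kb in 3 of the 10 member pairs in EE, 4 in ME and 4 in LE, beside 21.1%, 7.93% and 7.5% of all 4227 such pairs. The mRNAs of the member pairs were low, with a median level of 12.7 in LE against 355 in all pairs, and the part of this in the count was not tested.

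The mRNA of the glucose sensor was covered in 3 pieces, which did not share a pattern. The SNF3 homolog KMPG01440 lies on the plus strand of contig 105 from 117708 to 120149, and 75.6% of it is covered. Its last piece, transfrag09478 (119136 to 120234), had levels of 142.94 (EE), 192.65 (ME) and 289.01 (LE). The log2 change was 0.43 ± 0.21 in ME and 1.01 ± 0.20 in LE against EE, and 0.58 ± 0.12 in LE against ME. The level was thus lowest in EE and highest in LE, 1.35-fold (ME) and 2.02-fold (LE) the EE level. The change in LE fell short of 2-fold under other scalings, with a log2 change of 0.82 for equal summed levels and 0.39 for equal sums without the 100 highest transfrags.

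The first piece, transfrag09476 (117783 to 118112), differed more. Its levels were 2.12, 48.89 and 80.82, and the EE level came from 3 reads in 1 library and 0 in the other. Its reads were 17.7-fold higher in ME (95% counting interval of 5.94 to 86.7) and 29.1-fold higher in LE (9.85 to 142). By log2 change, 126 mRNA transfrags were above it in ME and 68 in LE.

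The piece in between, transfrag09477 (118280 to 118782), had levels of 7.46, 5.51 and 2.97. Its log2 change in LE was −1.09 ± 0.92, and its LE libraries held 2 and 6 reads against 3 and 4 in EE. Gaps of 167 and 353 bp separate the pieces, so that in EE a transfrag at 130 per kb stood in the same gene as others at 6.42 and 14.8 per kb. Summed over the gene, the level was 152.5 (EE), 247.1 (ME) and 372.8 (LE).

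The strand opposite to the SNF3 homolog was low. None of its transfrags was at least 2-fold higher in ME or LE against EE, beside 24% and 24.5% of all antisense transfrags. The lancRNA transfrag11228 had levels of 8.71, 1.72 and 1.59, a log2 change of −1.91 ± 0.93 in LE. The sancRNAs transfrag11222, transfrag11226 and transfrag11227 had levels of at most 5.35 in any phase. Together these 4 had 36.6 (EE), 21.3 (ME) and 17.8 (LE) per kb, and the mRNA transfrags of the gene had 78.9, 128 and 193.

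The 3 mRNA transfrags nearest in pattern to transfrag09478 were transfrag14160, transfrag18438 and transfrag13508, at distances of 0.0072, 0.028 and 0.045. transfrag14160 on contig 106 had levels of 1026.03, 1375.39 and 2061.72. Of the 4020 transfrags compared, 74 lay within 0.25.

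**Figure D4:**
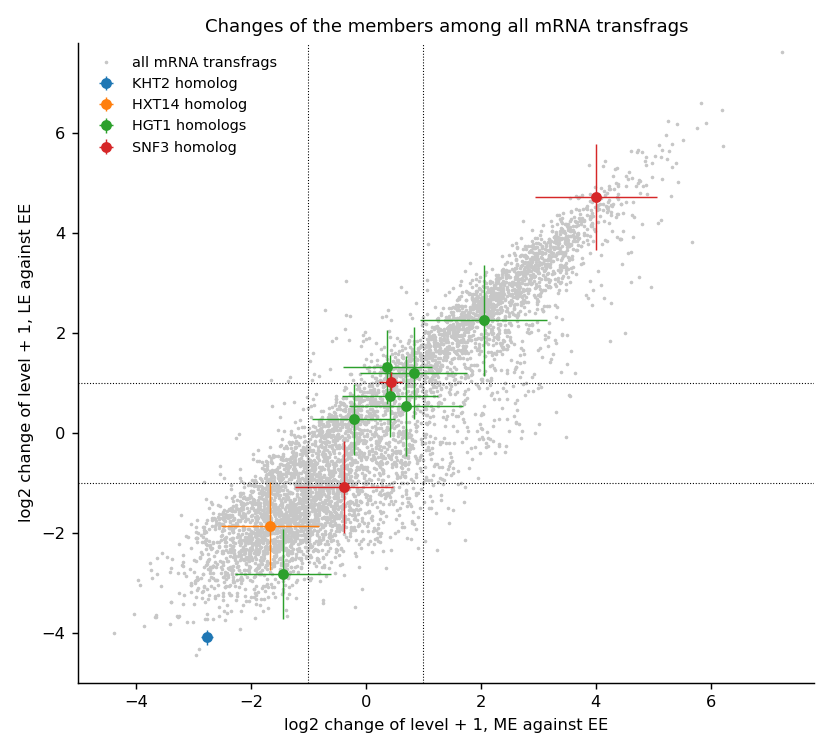
Log2 change of level plus 1 in ME against EE (x axis) and LE against EE (y axis) for all 5785 mRNA transfrags (grey) and the 12 members (coloured by homolog, with widened counting errors). Dotted lines mark 2-fold changes. The KHT2 transfrag lies at −2.76 and −4.09 near the lower edge of the cloud, and transfrag09476 of the SNF3 homolog at 4.00 and 4.71 near its upper end.

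The order of the carriers and the sensor by level per kb differed between the phases. In EE transfrag00048 stood first at 1049 ± 43.8 per kb, ahead of transfrag09478 at 130 ± 16.9, and both differed from the next by more than 2 errors of the difference. transfrag01421 and transfrag06263 followed at 55.4 ± 27.0 and 55.0 ± 26.7, which are not distinguishable, and the other 8 lay between 4.63 and 16.5. In ME transfrag09478 at 175 ± 11.0, transfrag00048 at 154 ± 9.37 and transfrag09476 at 148 ± 18.4 each differed from the next of these 3 by less than 2 errors, and transfrag09476 stood apart from transfrag06269 below it, at 26.2 ± 6.68. In LE transfrag09478 at 263 ± 14.0 and transfrag09476 at 245 ± 24.7 came first and were not distinguishable. transfrag00048 came next at 60.7 ± 6.14, and was not separated from transfrag06280 at 44.1 ± 8.52. At high levels these errors may be too narrow, and the separations there have no replicate check.

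Other genes of glucose sensing, sugar phosphorylation and sugar use were followed beside the members. The list of 18 genes had 13 with 18 mRNA transfrags, and the homologs of GPR1, of INV2 and of GAL80 and both homologs of β-galactosidase had none. In LE against EE, 5 of the 18 transfrags were at least 2-fold higher, 10 were lower and 3 neither, beside 34.2% higher and 37.2% lower among all mRNA transfrags. The median log2 change was −1.26, and that of all mRNA transfrags −0.28.

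The genes of sensing and repression were mostly lower. Of their 12 transfrags, 2 were higher and 10 lower in LE against EE, beside 34.2% and 37.2% of all mRNA transfrags, with a median log2 change of −2.01. Of the 10, 3 lie with less than 50% of their length inside the gene, namely transfrag11491 of GPA2, transfrag09339 of REG1 and transfrag01594 of CYC8. For GSF2, which encodes an endoplasmic reticulum protein needed for the export of hexose carriers in *S. cerevisiae*, transfrag04437 had levels of 445.91, 123.64 and 61.78 in EE, ME and LE, 7.22-fold lower in LE. For SKS1, a kinase gene for growth on low glucose in *S. cerevisiae*, transfrag11669 had 188.31, 66.13 and 27.65, 6.81-fold lower. For REG1, the subunit that directs protein phosphatase 1 in glucose repression, the 2 transfrags had log2 changes of −1.19 ± 0.42 and −2.03 ± 0.16. The 2 transfrags of CYC8, a general corepressor, had −3.07 ± 0.43 and −1.32 ± 0.03. Those of GPA2, the G protein α subunit of glucose sensing, had −2.19 ± 0.54 and −1.98 ± 0.04.

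RAG8 and RGT1 each had 1 transfrag that was higher and 1 that was lower. RAG8 encodes the casein kinase of glucose signalling in *K. lactis*. Its transfrag11499 had levels of 126.85, 47.66 and 19.82, and its transfrag11500 had 386.00, 933.68 and 1165.46. RGT1 encodes the repressor of carrier genes. Its transfrag11874 had levels of 2496.07, 678.92 and 976.60, and its transfrag11875 had 230.21, 1146.12 and 1589.60. No single direction can therefore be given for either gene.

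The genes of sugar phosphorylation and of glucose-6-phosphate isomerase differed less in LE against EE than those of sensing and repression. transfrag09803 of the hexokinase homolog had levels of 1679.89, 3790.92 and 3148.01, with log2 changes of 1.17 ± 0.06 (ME) and 0.91 ± 0.06 (LE). transfrag05577 of glucose-6-phosphate isomerase had 2518.62, 5901.57 and 4480.26, with log2 changes of 1.23 ± 0.05 and 0.83 ± 0.05. transfrag00877 of the glucokinase homolog had 1531.65, 1187.06 and 1054.31. None of the 3 was changed 2-fold in LE against EE, beside 34.2% higher and 37.2% lower among all mRNA transfrags. In ME against EE, 2 were at least 2-fold higher and 0 lower, beside 33.6% and 31% of all mRNA transfrags.

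Of the genes for other sugars and other carriers, 3 of 7 had an mRNA transfrag, 1 each. All 3 of these were at least 2-fold higher in LE against EE, beside 34.2% of all mRNA transfrags. INU1, the inulinase gene of *K. marxianus*, had levels of 11.94, 150.48 and 196.44 at transfrag04170, 16.5-fold higher in LE than in EE. STL1, which encodes a glycerol proton symporter of the same superfamily in *S. cerevisiae*, had 251.16, 3301.83 and 3770.56 at transfrag12269, 15.0-fold higher. The *myo*-inositol carrier homolog ITR2 had 138.26, 214.98 and 434.99 at transfrag09274, 3.15-fold higher.

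**Figure D5:**
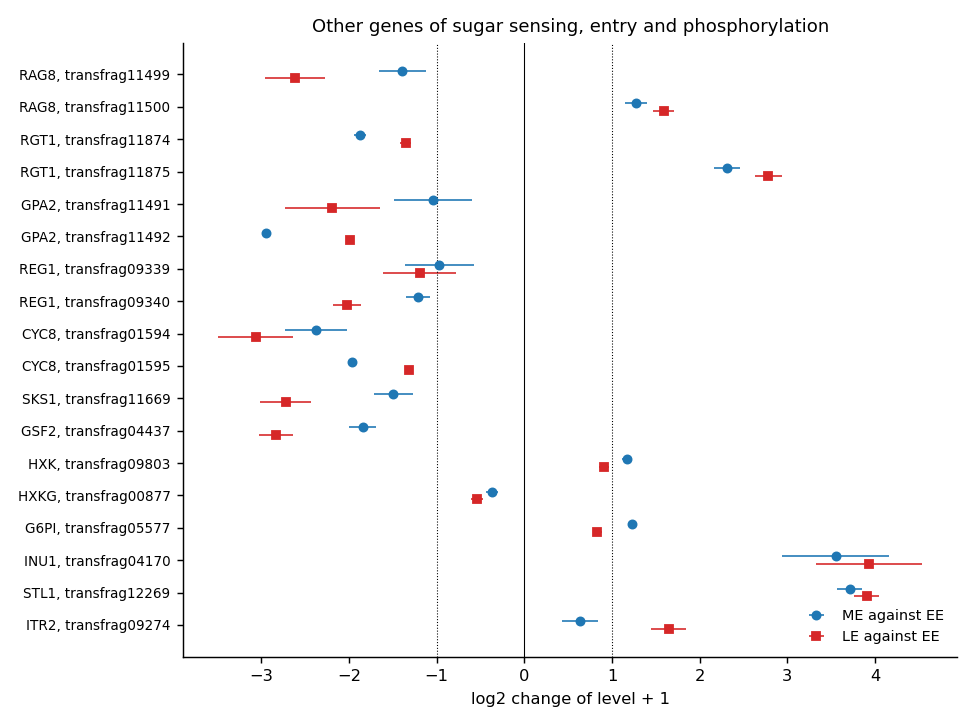
Log2 change of level plus 1 for the 18 mRNA transfrags of the other sugar genes, in ME (circles) and LE (squares) against EE, with widened counting errors. Dotted lines mark 2-fold changes. INU1 and STL1 lie at 3.93 and 3.90 in LE, and the 2 transfrags of RAG8 and of RGT1 lie on opposite sides of 0.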

How the data were processed

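*K. marxianus* RNA was sequenced in 6 libraries, grouped by the growth phase in their labels. The authors mapped the reads with CLC genomics workbench to a genome sequence from NCBI, placed non-specific matches at random, joined reads of all phases into transfrags and scaled the libraries with DESeq size factors. The deposited levels are a normalized read signal, averaged by the authors over 2 libraries per phase and rounded to 2 decimals. Only these means were available, so tests and replicate fits were not made.

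Homolog names and gene positions came from the authors' annotation, and genes were joined to transfrags by contig, strand and an overlap of at least 1 bp. The members and lists were chosen with earlier results of these data known. All members, their opposite-strand transfrags, the list genes and the nearest patterns (5 for transfrag00048, 3 for transfrag09478) are named. Levels were compared with a pseudocount of 1. Size factors were recovered from low levels, and reads per library were given where an EE level up to 20, or an ME or LE level up to 5, split in a single way. Which library is which replicate is unknown. Counting intervals are exact 95% binomial intervals on pooled reads without the wider factor, and cover counting alone. The methods were tested on simulated data. Other pseudocounts, fold limits, filters, overlaps and scalings were tried. Python 3.11.15, SciPy 1.17.1, NumPy 2.4.6, pandas 2.3.3 and Matplotlib 3.10.9 were used.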

Additional observations from a re-analysis of the deposited data

How the results depend on the processing

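No paired analysis was possible because the deposited levels are means over both libraries of a phase, and fits without single replicates were not run for the same reason. Of 120 log2 changes recomputed for single members, 109 moved by less than 1 error, 11 by more and 0 reversed in a called direction. The counts of the list of other sugar genes, 5 higher and 10 lower, stayed within 1.5 times under the alternatives run for it, which were the pseudocounts, the scalings and the limit of 50% inside the gene, with 4 to 7 higher and 7 to 11 lower. The counts of 2 higher and 3 lower members in ME against EE became 4 higher with a fold limit of 1.5, 1 higher and 1 lower with mean levels from 10 upwards, 1 higher with members at least 50% inside the gene, and 1 higher with levels summed per gene. The counts of 5 higher and 4 lower in LE against EE became 3 higher with a pseudocount of 5, 2 higher when scaled without the 100 highest transfrags, 2 higher with a fold limit of 3, 3 higher and 1 lower with mean levels from 10 upwards, and 3 higher and 2 lower per gene. The counts of 0 higher and 2 lower in LE against ME became 1 higher when scaled by the median mRNA ratio, 2 higher with a fold limit of 1.5, 1 lower with a pseudocount of 5, 0 lower with a fold limit of 3, and 1 lower with a mean level of at least 10 or per gene. The counts of 3 higher and 3 lower opposite-strand transfrags became 7 higher when those over the genes were included, 0 lower with mean levels from 10 upwards, and 1 lower when at least 50% of the transfrag had to be covered. The mean level and the sum per gene leave fewer items, and for the other settings the cause was not tested. transfrag06276 was the only member whose log2 change turned sign under a setting. Levels of a few reads in EE limit the HGT1 and HXT results.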

Other observations

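Between and next to the HGT1 homologs on contig 103 lay intergenic transfrags of both directions of change. On the strand of the genes, the lincRNA transfrag06272 lay 78 bp upstream of KMPG00731 and had levels of 13.11 (EE), 3.16 (ME) and 0.88 (LE), a log2 change of −2.91 ± 0.87 in LE. Upstream of KMPG00733, at a distance of 54 bp, the lincRNA transfrag06281 had levels of 12.95, 6.15 and 1.09. The lincRNA transfrag06277, 66 bp upstream of KMPG00732, had 8.32, 5.23 and 4.44. On the opposite strand, the lincRNA transfrag04092, 68 bp beyond the end of KMPG00732, had levels of 10.99, 22.58 and 34.17, a log2 change of 1.55 ± 0.66 in LE. Farther from the genes, the lincRNA transfrag06267, 426 bp upstream of KMPG00730, had 0, 6.44 and 5.93, and the lincRNA transfrag06283, 743 bp upstream of KMPG00733, had 15.56, 35.51 and 45.26. The change of transfrag06277, −0.78 ± 0.86 in LE, lay within its error. These lincRNAs were picked after their values had been seen, and others near the HGT1 homologs are not named.

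Beyond the end of the KHT2 homolog, the sincRNA transfrag00047 lay on the same strand, 120 bp from transfrag00048. Its levels were 67.42 (EE), 2.17 (ME) and 15.89 (LE). It was lowest in ME, unlike transfrag00048, which was lowest in LE.

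Upstream of the SNF3 homolog, transfrag09474 of a SEC31 homolog, which encodes a coat protein of secretory vesicles, lay on the same strand and ended 928 bp before the gene. Its levels were 17.90, 196.98 and 179.43, so that its log2 change was 3.39 in ME, similar to the 3.25 of LE. The next mRNA downstream, transfrag09479, had levels of 480.09, 387.94 and 525.95. Both were named after their values had been seen.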
